A study of Mus musculus with 8 samples.

Results

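The 10 genes described here encode regulators that are produced downstream of TNF-α and act back on its signaling, or are classed with such genes. They were chosen by symbol: Tnfaip3, Tnip1, Tnip2, Birc2, Birc3, Traf1, Traf3, Cyld, Tnfaip2 and Stx11. Each was present once among the 54146 genes of all 8 libraries, and all 10 passed the filter on low counts in every comparison. Their messenger RNA was quantified by RNA-seq of primary mouse astrocytes, in 4 groups of 2 biological replicates. Control KD astrocytes expressed a non-silencing short hairpin RNA (shRNA), and GSTM1 KD astrocytes expressed an shRNA against Gstm1, which encodes a glutathione S-transferase of the mu class. Both were analyzed at the basal level, without stimulation, and after TNF-α stimulation at 50 ng/ml for 6 h. All 4 groups followed the same described protocol apart from the shRNA and the stimulation. The sources used here do not say if they came from the same pups, flasks or day. The cells were cortical glia of C57BL/6 pups at postnatal days 2 to 5, infected with lentivirus, selected with puromycin, freed of loosely attached oligodendrocyte lineage cells and microglia by shaking, and depleted of CD11b-positive cells with magnetic beads. They were therefore enriched primary cultures and not a clonal line, with about 2 brains to a culture flask.

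TNF-α bound to its receptor assembles a complex in which TRAF adaptors and the cellular inhibitor of apoptosis (cIAP) ubiquitin ligases build ubiquitin chains. These chains recruit the TAK1 and IKK kinases, and IKK releases the transcription factor NF-κB from its IκB inhibitors. NF-κB then switches on genes whose products restrain the same pathway, among them IκBα and the ubiquitin-editing enzyme A20, and in astrocytes it drives a large share of the inflammatory genes that follow TNF-α. The 10 genes fall into 4 roles. Tnfaip3 encodes A20, and Tnip1 and Tnip2 encode ABIN1 and ABIN2, ubiquitin-binding partners of A20. Birc2 and Birc3 encode cIAP1 and cIAP2, and Traf1 and Traf3 encode adaptors that work with them. Cyld encodes a deubiquitinase that removes the chains. Tnfaip2, known for its part in tunneling nanotubes, and Stx11, a SNARE protein of vesicle fusion known from cytotoxic lymphocytes, have no established enzymatic part in the receptor complex.

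In brief, 6 of the 10 genes rose after TNF-α in both control KD and GSTM1 KD astrocytes (Tnfaip3, Tnip1, Birc2, Birc3, Tnfaip2 and Stx11). Of all genes tested, 2.10% (control KD) and 2.35% (GSTM1 KD) passed as higher. Tnip2, Traf1, Traf3 and Cyld did not pass the edgeR test. Of these, Traf3 passed in both responses under some alternatives, DESeq2 and a block for the replicate number among them. In GSTM1 KD astrocytes Tnfaip3, Birc3, Tnfaip2 and Stx11 were lower than in control KD with or without TNF-α, while Traf3 was higher in both states. Over all genes tested, 5.62% (basal) and 8.92% (after TNF-α) passed as lower, and 4.60% and 7.26% as higher. Both calls of Stx11 were lost with a correction for its estimated transcript length, which made the difference smaller at the basal level and left it nearly the same after TNF-α. The size of the TNF-α response itself passed the test of a difference between the knockdowns for none of the 10. This does not show that the responses were equal, since no gene at all passed in that fit. Without a filter on low counts, Stx11 and Tnfaip3 passed that test, in a run where 134 of all genes passed, against 0 with the filter. The Stx11 difference, 1.00 on the log2 scale, was 0.14 with the length correction.

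In GRCm38 coordinates, with the GENCODE M21 annotation, all 10 genes are protein-coding. Tnfaip3 (ENSMUSG00000019850.11) and Stx11 (ENSMUSG00000039232.12) lie on the minus strand of chromosome 10, at 19000910 to 19015657 and at 12938209 to 12964298. Birc2 (ENSMUSG00000057367.12) and Birc3 (ENSMUSG00000032000.17) are neighboring paralogs on the minus strand of chromosome 9, at 7818227 to 7837064 and at 7848699 to 7873186. Traf3 (ENSMUSG00000021277.16) and Tnfaip2 (ENSMUSG00000021281.15) are on the plus strand of chromosome 12, at 111166370 to 111267153 and at 111442469 to 111455018. Tnip1 (ENSMUSG00000020400.17) spans 54910785 to 54962917 on the minus strand of chromosome 11. Tnip2 (ENSMUSG00000059866.13) spans 34496087 to 34513991 on the minus strand of chromosome 5, and Traf1 (ENSMUSG00000026875.14) 34941750 to 34961772 on the minus strand of chromosome 2. Cyld (ENSMUSG00000036712.15) spans 88697028 to 88751945 on the plus strand of chromosome 8. On the opposite strand, Traf3 overlaps the gene 4930595D18Rik, Tnfaip2 the antisense gene Gm40578, Tnip1 the pseudogene Gm12230, and Cyld the pseudogenes Gm17995 and Gm17910. The libraries were directional, but no source used here says if reads were assigned by strand, so the counts of these 4 genes may include reads of the overlapping gene.

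Because NF-κB is the factor classically linked to these genes, the promoters were searched for its 10-base consensus site on both strands. RefSeq promoter sequences (GRCm38.p6, 250 bases before to 50 bases after each gene start) were found for all 10 genes, and 4 of the 10 held at least 1 match. Of all promoters in that set, 1480 of 32851 (4.51%), belonging to 1388 of 27025 genes (5.14%), held a match. Tnfaip3 had a match on its own strand at bases −125 to −116 and another on the opposite strand at −12 to −3. In Tnip1 the matches overlapped on both strands, within a palindrome from −58 to −47. Traf3 had a match on its own strand at −10 to −1, and Cyld on the opposite strand at −155 to −146. The promoters of these 4 genes are printed because 2 of them belong to genes that rose after TNF-α and the other 2 to genes that did not pass the test. Birc3 is printed with them as a gene without a match that had the profile closest to that of Tnfaip3. Each is written 5′ to 3′ on the strand of the gene, with the matching bases in capitals. They lie at chr10:19015361-19015660 (minus strand) for Tnfaip3, chr11:54962891-54963190 (minus strand) for Tnip1, chr12:111166120-111166419 (plus strand) for Traf3, chr8:88696778-88697077 (plus strand) for Cyld and chr9:7873121-7873420 (minus strand) for Birc3.
Tnfaip3: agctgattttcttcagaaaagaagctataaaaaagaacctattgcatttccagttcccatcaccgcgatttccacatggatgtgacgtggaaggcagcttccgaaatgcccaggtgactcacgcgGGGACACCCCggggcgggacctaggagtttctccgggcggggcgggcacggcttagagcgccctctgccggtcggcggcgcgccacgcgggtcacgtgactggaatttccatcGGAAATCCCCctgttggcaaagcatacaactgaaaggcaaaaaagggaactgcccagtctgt
Tnip1: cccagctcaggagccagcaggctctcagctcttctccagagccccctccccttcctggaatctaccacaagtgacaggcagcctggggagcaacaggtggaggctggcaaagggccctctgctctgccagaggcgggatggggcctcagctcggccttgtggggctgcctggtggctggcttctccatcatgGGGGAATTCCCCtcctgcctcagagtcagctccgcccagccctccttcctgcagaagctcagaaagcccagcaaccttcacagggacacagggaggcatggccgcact
Traf3: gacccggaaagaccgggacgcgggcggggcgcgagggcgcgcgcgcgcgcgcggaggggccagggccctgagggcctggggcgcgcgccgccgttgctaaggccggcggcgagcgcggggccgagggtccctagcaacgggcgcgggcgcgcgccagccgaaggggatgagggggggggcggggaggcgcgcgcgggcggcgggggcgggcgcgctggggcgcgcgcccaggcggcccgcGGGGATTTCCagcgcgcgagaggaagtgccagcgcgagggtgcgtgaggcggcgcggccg
Cyld: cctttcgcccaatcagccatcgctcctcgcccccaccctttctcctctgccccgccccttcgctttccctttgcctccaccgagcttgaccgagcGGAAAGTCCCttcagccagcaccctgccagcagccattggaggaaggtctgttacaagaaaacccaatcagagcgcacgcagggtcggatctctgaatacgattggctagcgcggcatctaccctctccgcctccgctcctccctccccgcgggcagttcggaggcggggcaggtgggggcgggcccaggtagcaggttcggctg
Birc3: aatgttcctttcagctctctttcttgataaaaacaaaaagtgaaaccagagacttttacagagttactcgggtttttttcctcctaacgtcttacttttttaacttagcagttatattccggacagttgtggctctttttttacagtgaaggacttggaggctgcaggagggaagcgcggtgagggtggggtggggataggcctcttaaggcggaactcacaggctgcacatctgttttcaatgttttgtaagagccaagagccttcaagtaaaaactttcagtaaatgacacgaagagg
A match is a description of the letters only. Tnfaip3 and Birc2 have a second promoter in the table, without a match. The starts used for Tnfaip2 and for the printed Tnfaip3 promoter lie well downstream of the annotated gene starts. Both Tnfaip3 matches therefore lie within the annotated gene, and the last bases of that window were found in its GENCODE transcripts. The last bases of the Tnfaip2 window were not found in a GENCODE transcript of the gene, so its window may not be the promoter in use. Of the 6 genes that rose after TNF-α, 2 had a promoter with a match, and of the 4 genes that did not pass the test 2 did.

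**Figure D1:**
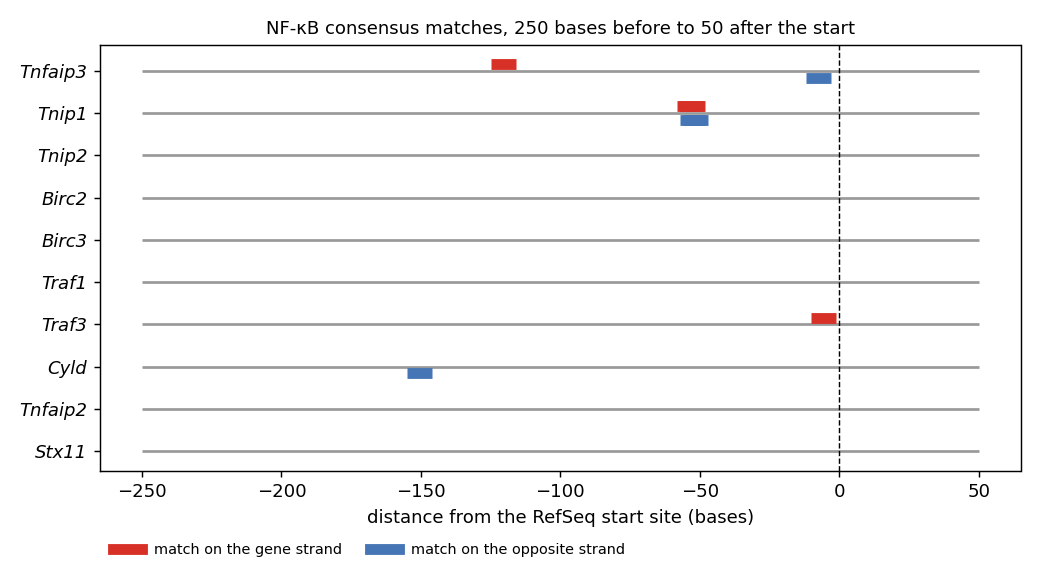
Position of NF-κB consensus matches in the promoter of each of the 10 genes. The x axis is the distance in bases from the RefSeq start site, grey lines mark the 300 bases searched, and red and blue bars are matches on the gene strand and the opposite strand. Tnfaip3, Tnip1, Traf3 and Cyld had matches, and the other 6 genes had none.

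The expected counts summed to between 17349676 and 34434633 per library, and edgeR estimated a common biological coefficient of variation of 15.4% over the 8 libraries. Levels are given below as CPM (counts scaled to a common library size with edgeR's TMM factors), and changes as log2 fold changes with their standard errors (SE) from edgeR's quasi-likelihood fit. A gene passed the test where its p-value, adjusted by the Benjamini-Hochberg method over all genes tested, was under 0.05. A test that only exchanges the labels of 2 libraries against 2 cannot reach that threshold. Groups of 2 libraries often separate by chance, so a statement that libraries did not overlap only describes the values. The share of all genes that separate in this way was not counted. All p-values rest on the spread that edgeR, or DESeq2 where it is named, shares across genes. Gstm1 itself was at 231 and 377 CPM in control KD and 29.0 and 31.4 CPM in GSTM1 KD without stimulation, and at 209 and 391 CPM against 24.3 and 23.3 CPM after TNF-α stimulation. Its levels therefore fit the knockdown label of all 8 libraries, and they do not check the stimulation label.

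The labelled cell type was checked against 10 astrocyte markers, all of which were detected. Their summed TPM (RSEM's transcript abundance per unit of length, with an equal sum in each library) was 1634 to 3870 in control KD and 3744 to 5807 in basal GSTM1 KD, and 1608 to 3684 against 3557 to 5477 after TNF-α stimulation. Gfap, the intermediate filament of astrocytes, was lower in replicate 1 than in replicate 2 of every group, at 707 and 2206 TPM in basal control KD and 2333 and 4184 TPM in basal GSTM1 KD. Fibroblast and mural cell markers (7 genes) summed to 3666 to 4031 TPM in control KD and 1838 to 2189 TPM in basal GSTM1 KD, and to 3100 to 3171 against 1611 to 1876 TPM after TNF-α. Acta2, which encodes smooth muscle actin, made up nearly all of this sum, at 3935 and 3521 TPM in basal control KD and 2113 and 1730 TPM in basal GSTM1 KD. Col1a2 was also lower in GSTM1 KD (41.0 and 53.3 against 18.1 and 26.3 TPM), but Pdgfrb was higher (16.8 and 25.8 against 30.4 and 30.6 TPM).

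Microglia and macrophage markers (12 genes) summed to 11.1 to 21.9 TPM in control KD and 7.85 to 12.6 TPM in GSTM1 KD without stimulation, and to 12.1 to 22.0 against 7.30 to 13.7 TPM with it. P2ry12 was at 3 counts or fewer in each library, and Trem2 was at 2.52 and 0.93 TPM in basal control KD and 0.25 and 0 TPM in basal GSTM1 KD. Endothelial markers (8 genes) summed to 5.75 to 6.34 TPM in control KD and 3.18 to 4.07 TPM in basal GSTM1 KD, and to 6.89 to 8.27 against 4.12 to 5.40 TPM after TNF-α, with Cldn5, Emcn and Tie1 at 3 counts or fewer in each library. Neuron markers (6 genes) summed to 288 to 296 TPM against 322 to 371 TPM without stimulation, and to 276 to 281 against 300.5 to 326.5 TPM with it. For choroid plexus and ependyma markers (6 genes) the sums were 76.3 to 118 against 103 to 119 TPM and 65.1 to 77.9 against 93.5 to 104 TPM. Oligodendrocyte lineage markers (7 genes) summed to between 14.7 and 32.5 TPM over the 8 libraries, with Mag and Mog at 3 counts or fewer in each, as were Snap25 among the neuron markers and Tmem212 among the ependymal ones. At the basal level Gfap, Aldoc, Aldh1l1, Slc1a2, Gja1 and Fgfr3 were higher in both GSTM1 KD libraries than in both control KD libraries. S100b and Sox9 were lower, and Slc1a3 and Aqp4 overlapped. With 2 libraries per group such a separation can arise by chance, and it was not tested. The part of these markers in the results below was not tested. In bulk RNA, fewer cells of a type and less RNA per cell cannot be told apart.

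The first question was which of the 10 genes TNF-α raised in control KD astrocytes. Tnfaip3 was at 54.9 and 27.6 CPM at the basal level and at 291 and 212 CPM after TNF-α stimulation. This was a 6.08-fold rise (log2 fold change 2.61, SE 0.310, adjusted p = 0.00789 by edgeR). Tnip1 was at 45.5 and 37.0 CPM before and 172 and 185 CPM after stimulation, a log2 fold change of 2.11 (SE 0.113, adjusted p = 0.000379). For both genes each stimulated library was above each basal library. Tnip2 stayed at 11.6 and 10.99 CPM before and 13.5 and 9.57 CPM after, and these libraries overlapped (log2 fold change 0.04, 95% interval −0.45 to 0.52, adjusted p = 0.994). The A20 gene and the gene of its partner ABIN1 therefore rose, whereas the gene of ABIN2 did not pass the test.

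Of the ubiquitin ligase genes, Birc3 was at 9.95 and 8.25 CPM at the basal level and at 79.6 and 74.3 CPM after stimulation (log2 fold change 3.08, SE 0.146, adjusted p = 0.000239). Birc2 started higher, at 41.7 and 38.0 CPM, and reached 88.4 and 115 CPM (log2 fold change 1.35, SE 0.138, adjusted p = 0.00497). The basal and stimulated libraries did not overlap for either gene, and Birc3 changed 8.43-fold against 2.55-fold for Birc2. These paralogs can share reads, and 5 of the 80 deposited count values of the 10 genes were not whole numbers, among them those of Birc2 and Birc3 in GSTM1 KD replicate 1 after TNF-α.

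The adaptor genes gave a less even picture. Traf1 was at 3.65 and 13.9 CPM at the basal level and at 4.18 and 7.22 CPM after stimulation, so that both stimulated libraries lay between the basal ones. Its log2 fold change was −0.62 with a 95% interval from −1.95 to 0.71 (edgeR adjusted p = 0.841), and it was 0.64 without control KD basal replicate 2. Traf3 was at 46.3 and 60.5 CPM before and 79.7 and 94.2 CPM after, with no overlap. Its log2 fold change of 0.70 (95% interval 0.35 to 1.05) missed the threshold with edgeR (adjusted p = 0.0620) and passed with DESeq2 (0.71, adjusted p = 0.00279). Cyld, the deubiquitinase gene, was at 60.8 and 79.4 CPM before and 60.9 and 71.6 CPM after, and its log2 fold change of −0.08 (95% interval −0.43 to 0.27) did not pass the test.

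Tnfaip2 and Stx11 rose from low basal levels. Tnfaip2 was at 19.4 and 17.8 CPM at the basal level and at 528 and 984 CPM after stimulation, a 40.6-fold rise (log2 fold change 5.34, SE 0.358, adjusted p = 0.000769 by edgeR). This was the widest change of the 10 genes, and its stimulated libraries also differed most from each other in CPM. Stx11 went from 8.51 and 6.65 CPM to 52.5 and 63.4 CPM (log2 fold change 2.93, SE 0.167, adjusted p = 0.000450).

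In control KD astrocytes 6 of the 10 genes were thus called higher and 0 lower, where 2.10% of the 15332 genes tested were called higher and 0.528% lower. The median log2 fold change of the 10 was 1.73 against −0.02 over all genes tested. When only the 4 control KD libraries were fitted, 4 of the 10 passed, and Tnfaip3 (log2 fold change 2.62, adjusted p = 0.0990) and Birc2 (1.36, adjusted p = 0.0620) did not.

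**Figure D2:**
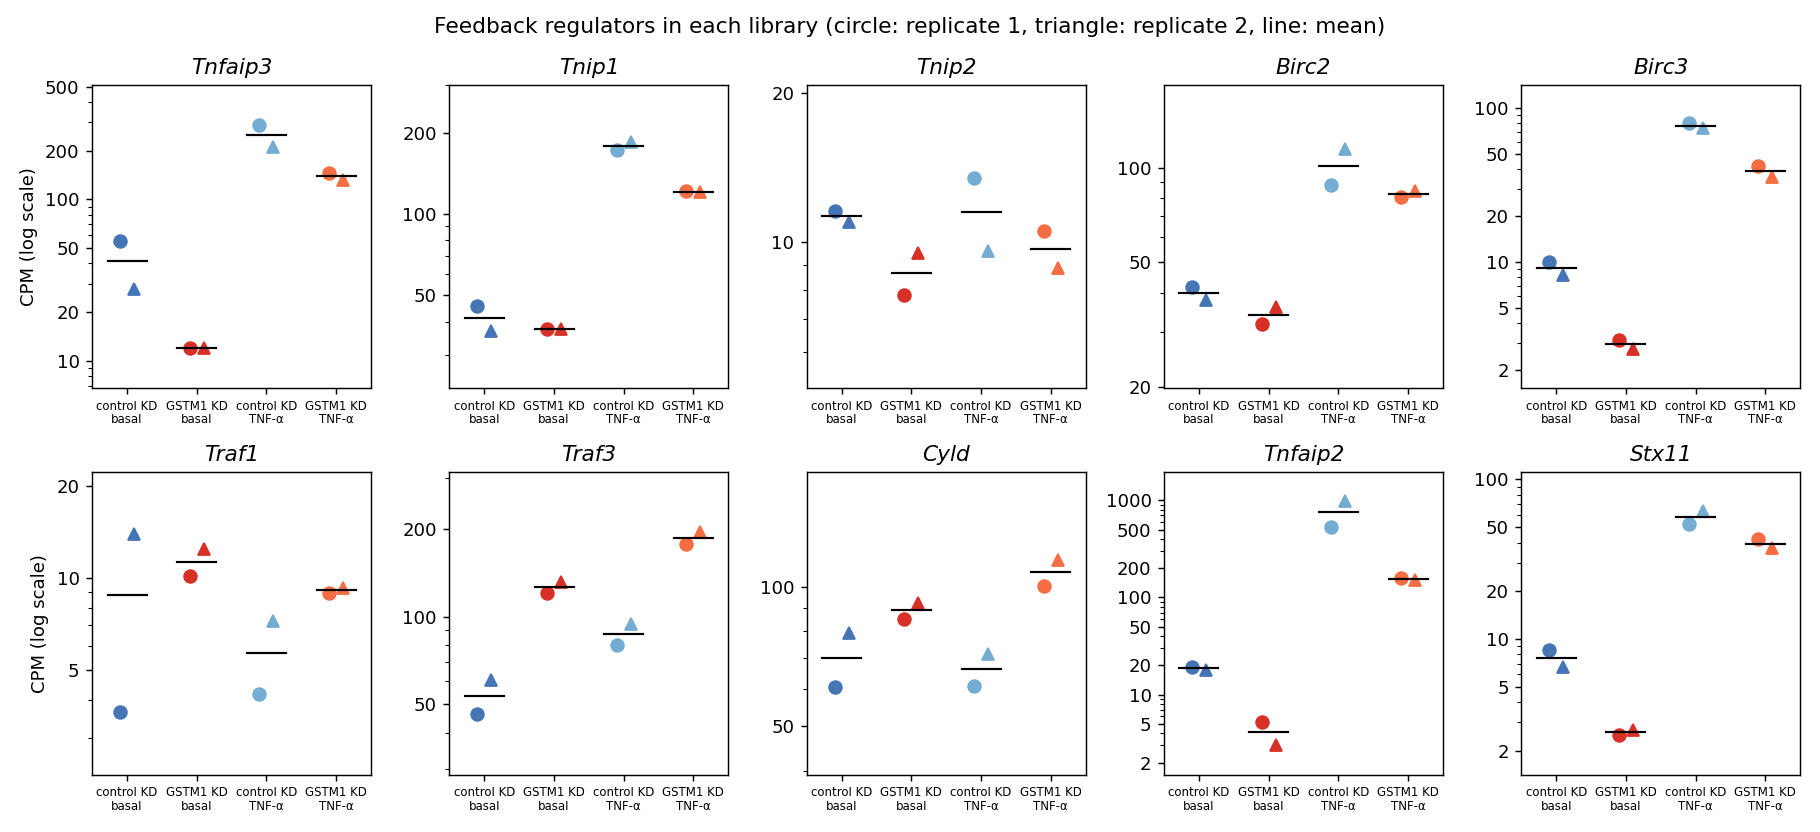
Level of each of the 10 genes in every library. The y axis is CPM on a log scale that differs between panels, the x axis gives the 4 groups, circles and triangles are replicates 1 and 2, and lines are group means. Tnfaip2 spans the widest range, from 3.01 to 984 CPM, and Tnip2 stays between 7.81 and 13.5 CPM in all 8 libraries.

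In GSTM1 KD astrocytes the response was asked of the same 10 genes, and the same 6 were called higher and 0 lower. Over all 15332 genes tested, 2.35% were called higher and 0.294% lower. Tnfaip3 went from 12.02 and 11.9 CPM to 146 and 132 CPM, an 11.6-fold rise (log2 fold change 3.54, SE 0.332, adjusted p = 0.0027 by edgeR). Tnip1 went from 37.5 and 37.6 CPM to 121.5 and 121 CPM (log2 fold change 1.69, SE 0.112, adjusted p = 0.000860). For both genes the replicates of each group lay close together and far from the other group. Birc3 went from 3.13 and 2.71 CPM to 42.1 and 35.8 CPM (log2 fold change 3.73, SE 0.162, adjusted p = 0.000255). Birc2 went from 31.8 and 35.9 CPM to 80.8 and 84.3 CPM (log2 fold change 1.29, SE 0.139, adjusted p = 0.00433).

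Tnfaip2 rose 37.6-fold, from 5.19 and 3.01 CPM to 159 and 152 CPM (log2 fold change 5.23, SE 0.374, edgeR adjusted p = 0.00106). Stx11 rose 15.2-fold, from 2.49 and 2.71 CPM to 42.0 and 37.1 CPM (log2 fold change 3.93, SE 0.186, adjusted p = 0.000255), and its log2 fold change was 3.25 with effective lengths as offsets. These were, with Birc3, the genes of the 10 with the lowest basal levels in GSTM1 KD. The remaining 4 genes did not pass the test. Traf3 went from 121 and 132 CPM to 177.5 and 195 CPM without overlap (log2 fold change 0.56, 95% interval 0.22 to 0.91, adjusted p = 0.137 by edgeR and 0.0486 by DESeq2). Cyld was at 85.3 and 92.3 CPM before and 100.5 and 114 CPM after (log2 fold change 0.27, 95% interval −0.08 to 0.63). Traf1 was at 10.2 and 12.4 CPM before and 8.96 and 9.25 CPM after (log2 fold change −0.31, 95% interval −1.61 to 0.99), and Tnip2 at 7.81 and 9.52 against 10.5 and 8.85 CPM (0.16, 95% interval −0.33 to 0.66). The median log2 fold change of the 10 genes was 1.49 against −0.01 over all genes tested. Without GSTM1 KD basal replicate 1, Tnfaip3 (adjusted p = 0.0553) and Birc2 (0.0661) lost their calls, and without GSTM1 KD basal replicate 2 so did both (0.0542 and 0.0515).

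**Figure D3:**
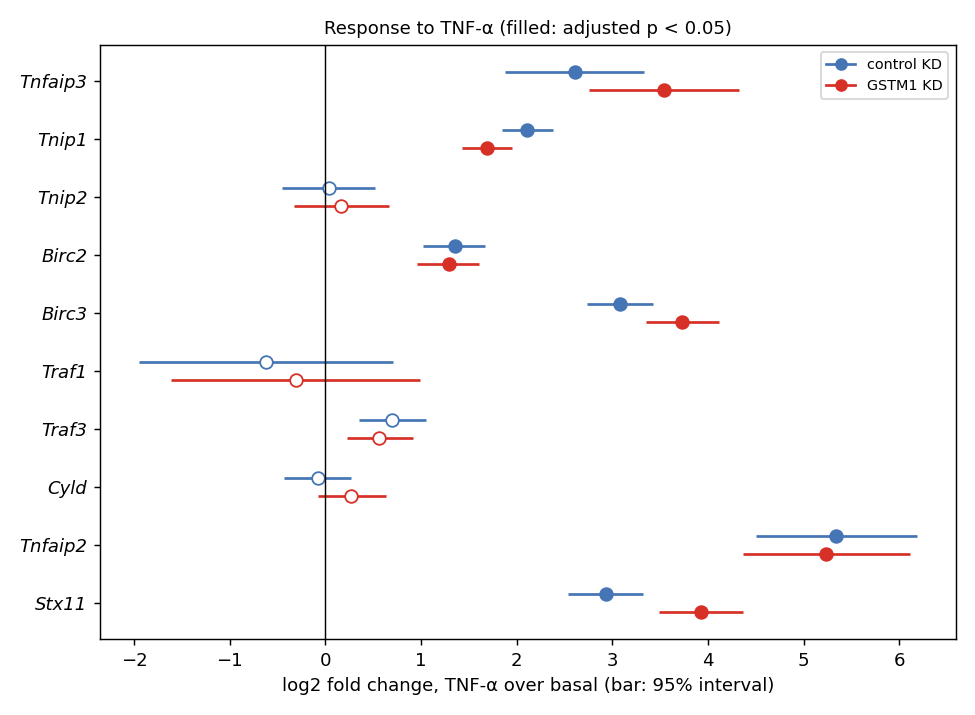
Response of the 10 genes to TNF-α in control KD (blue) and GSTM1 KD (red) astrocytes. The x axis is the log2 fold change of stimulated over basal libraries, bars are 95% intervals from edgeR, and filled points passed an adjusted p under 0.05. The same 6 genes are filled in both colors, from Birc2 at 1.35 and 1.29 to Tnfaip2 at 5.34 and 5.23.

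Whether the knockdown altered the size of the response was tested by the interaction of knockdown and stimulation over all 8 libraries. For the 10 genes 0 were called higher and 0 lower, and the same holds of all 15332 genes tested with edgeR (0% higher and 0% lower). An unadjusted p under 0.05 was reached by 295 genes, fewer than that threshold passes on average where no gene differs. The test was therefore conservative here, and the lack of calls does not show equal responses. DESeq2 called 27 genes and 0 of the 10. Stx11 had a difference of 1.00 on the log2 scale toward a larger response in GSTM1 KD (95% interval 0.44 to 1.57, unadjusted p = 0.00393, adjusted p = 1 by edgeR), which was 0.14 with effective lengths as offsets. Tnfaip3 had 0.93 (95% interval −0.07 to 1.94), which was 0.35 without control KD basal replicate 1 and 1.33 without replicate 2. Birc3 had 0.66 (95% interval 0.17 to 1.15). Tnip1 differed the other way, by −0.42 (95% interval −0.79 to −0.06). For Tnfaip2 the difference was −0.11, with an interval from −1.20 to 0.98. The median over the 10 genes was 0.22 against 0.02 over all genes. Without a filter on low counts, Stx11 (1.01, adjusted p = 0.0165 by edgeR) and Tnfaip3 (0.94, adjusted p = 0.000333) passed. That run called 134 genes. In it the adjusted p of the TNF-α response of Tnfaip3 in control KD was 3.29e-73 by edgeR, against 0.00789 with the filter.

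The second question was how the knockdowns differed within each state. At the basal level 4 of the 10 genes were lower in GSTM1 KD than in control KD astrocytes and 1 was higher, where 5.62% of the 14899 genes tested were called lower and 4.60% higher. The median log2 fold change of the 10 was −0.31 against 0.00 over all genes. Tnfaip3, at 54.9 and 27.6 CPM in control KD and 12.02 and 11.9 CPM in GSTM1 KD, was 3.45-fold lower (log2 fold change −1.79, SE 0.331, adjusted p = 0.0336 by edgeR). The control replicates differed more from each other than the GSTM1 KD replicates did, but both lay above them. Leaving out control KD replicate 1 or 2 gave log2 fold changes between −2.21 and −1.21.

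Birc3 was at 9.95 and 8.25 CPM in control KD and 3.13 and 2.71 CPM in GSTM1 KD (log2 fold change −1.64, SE 0.231, edgeR adjusted p = 0.0224). Tnfaip2 was at 19.4 and 17.8 CPM against 5.19 and 3.01 CPM, a 4.51-fold lower level (log2 fold change −2.17, SE 0.282, adjusted p = 0.0195). Stx11 was at 8.51 and 6.65 CPM against 2.49 and 2.71 CPM (log2 fold change −1.55, SE 0.248, adjusted p = 0.0263), but its value was −0.65 and did not pass with effective lengths as offsets. All 4 genes that were lower at the basal level were also among the 6 that TNF-α raised, but these comparisons share libraries. Traf3 was the gene called higher, at 46.3 and 60.5 CPM in control KD and 121 and 132 CPM in GSTM1 KD (log2 fold change 1.24, SE 0.154, adjusted p = 0.0193). TRAF3 is known to restrain the non-canonical NF-κB pathway by holding its kinase NIK for degradation. Map3k14, the gene of NIK, did not pass the test (log2 fold change 0.27, SE 0.168).

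The other 5 genes did not pass at the basal level. Tnip1 had a log2 fold change of −0.14 (95% interval −0.48 to 0.21), Tnip2 of −0.38 (−0.85 to 0.08) and Birc2 of −0.24 (−0.55 to 0.08). Cyld was at 60.8 and 79.4 CPM in control KD and 85.3 and 92.3 CPM in GSTM1 KD, which did not overlap (log2 fold change 0.34, 95% interval −0.03 to 0.72). It passed with a replicate block (0.35, adjusted p = 0.0229 by edgeR) and without control KD basal replicate 2 (0.54, adjusted p = 0.00549), whereas without replicate 1 its value was 0.16 (adjusted p = 0.361). Traf1 turned on a single library. Control KD replicate 1 held 129 counts (3.65 CPM) and replicate 2 held 355 counts (13.9 CPM), whereas GSTM1 KD was at 10.2 and 12.4 CPM. Its log2 fold change was 0.38 (95% interval −1.07 to 1.82). It became 1.62 without control KD replicate 2 (adjusted p = 0.00146 by edgeR) and −0.30 without replicate 1, so no direction is given for Traf1.

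After TNF-α stimulation 5 of the 10 genes were lower in GSTM1 KD and 2 were higher, where 8.92% of the 14593 genes tested were called lower and 7.26% higher. The median log2 fold change of the 10 was −0.45 against −0.01 over all genes. Tnfaip2, at 528 and 984 CPM in control KD and 159 and 152 CPM in GSTM1 KD, was 4.93-fold lower (log2 fold change −2.30, SE 0.295, adjusted p = 0.0141 by edgeR). Birc3, at 79.6 and 74.3 against 42.1 and 35.8 CPM, was 2.01-fold lower (log2 fold change −1.01, SE 0.122, adjusted p = 0.0129). Tnfaip3, at 291 and 212 against 146 and 132 CPM, was 1.84-fold lower (log2 fold change −0.88, SE 0.176, adjusted p = 0.0315). Groups did not overlap for these 3 genes, which with 2 libraries per group can arise by chance. When all 8 libraries were fitted together, Tnfaip3 missed the threshold (log2 fold change −0.86, adjusted p = 0.0793).

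Tnip1 was at 172 and 185 CPM in stimulated control KD and 121.5 and 121 CPM in stimulated GSTM1 KD (log2 fold change −0.58, SE 0.0946, edgeR adjusted p = 0.0205), having been close in the 2 knockdowns at the basal level. Stx11 was at 52.5 and 63.4 against 42.0 and 37.1 CPM (log2 fold change −0.57, SE 0.135, adjusted p = 0.0441). With its effective length as an offset the value was nearly the same (−0.54) and did not pass. Traf3 was higher in GSTM1 KD, at 177.5 and 195 against 79.7 and 94.2 CPM (log2 fold change 1.07, SE 0.120, adjusted p = 0.0116). Cyld was also higher, at 100.5 and 114 against 60.9 and 71.6 CPM (log2 fold change 0.67, SE 0.122, adjusted p = 0.0258). The genes of A20, ABIN1 and cIAP2 were therefore lower, and those of TRAF3 and the deubiquitinase CYLD higher, in the same libraries.

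Of the 3 genes that did not pass after stimulation, Birc2 was at 88.4 and 115 CPM in control KD and 80.8 and 84.3 CPM in GSTM1 KD (log2 fold change −0.32, 95% interval −0.67 to 0.03). Without control KD replicate 1 after TNF-α its value was −0.49 (adjusted p = 0.0176 by edgeR), and without replicate 2 it was −0.12 (0.393). Traf1 was at 4.18 and 7.22 against 8.96 and 9.25 CPM (log2 fold change 0.66, 95% interval −0.07 to 1.40), and its value was 1.10 (adjusted p = 0.0135) without control KD replicate 2 and 0.31 (0.380) without replicate 1. Tnip2 overlapped between the groups, at 13.5 and 9.57 against 10.5 and 8.85 CPM. In both states, leaving out either GSTM1 KD library left none of the 10 genes past the threshold. For a fit of that kind the lone GSTM1 KD library is assumed to vary like the control pair, and at most 94 genes passed in it among all tested. Values without 1 GSTM1 KD library kept their signs for all genes called, for example −1.75 and −1.55 for Birc3 at the basal level.

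**Figure D4:**
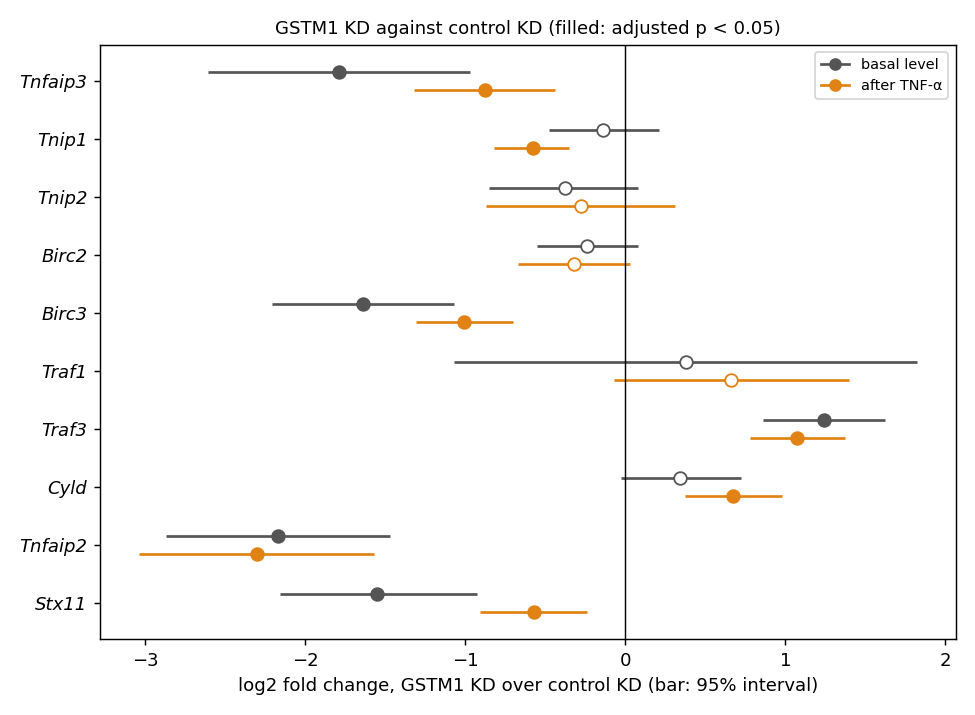
Level of the 10 genes in GSTM1 KD against control KD astrocytes at the basal level (grey) and after TNF-α stimulation (orange). The x axis is the log2 fold change of GSTM1 KD over control KD, bars are 95% intervals from edgeR, and filled points passed an adjusted p under 0.05. Tnfaip3, Birc3, Tnfaip2 and Stx11 lie left of 0 and Traf3 right of 0 in both states, while Traf1 at the basal level has the widest bar.

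The levels of Stx11 depended on how gene length was treated. RSEM's effective length is the transcript length reduced for the length of the sequenced fragments, averaged over the transcripts of a gene by their estimated abundance. For Stx11 it averaged 3077 bases in basal control KD and 1632 bases in basal GSTM1 KD, against 2696 and 2624 bases after stimulation. Over the 8 libraries it ran from 1548 to 3368 bases, the widest ratio of the 10 genes (2.17). In TPM, which divides by this length, Stx11 was at 5.22 and 3.39 in basal control KD and 2.88 and 2.80 in basal GSTM1 KD. With the effective lengths as offsets the log2 fold change of Stx11 was −0.65 at the basal level (adjusted p = 0.215 by edgeR) and −0.54 after TNF-α (adjusted p = 0.113), and neither passed. For Traf1 the effective length ran from 1097 to 1785 bases and for Tnfaip2 from 2303 to 3534 bases, while for Tnfaip3 it stayed between 3853 and 4040 bases. The calls of the other genes did not change with the offsets.

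**Figure D5:**
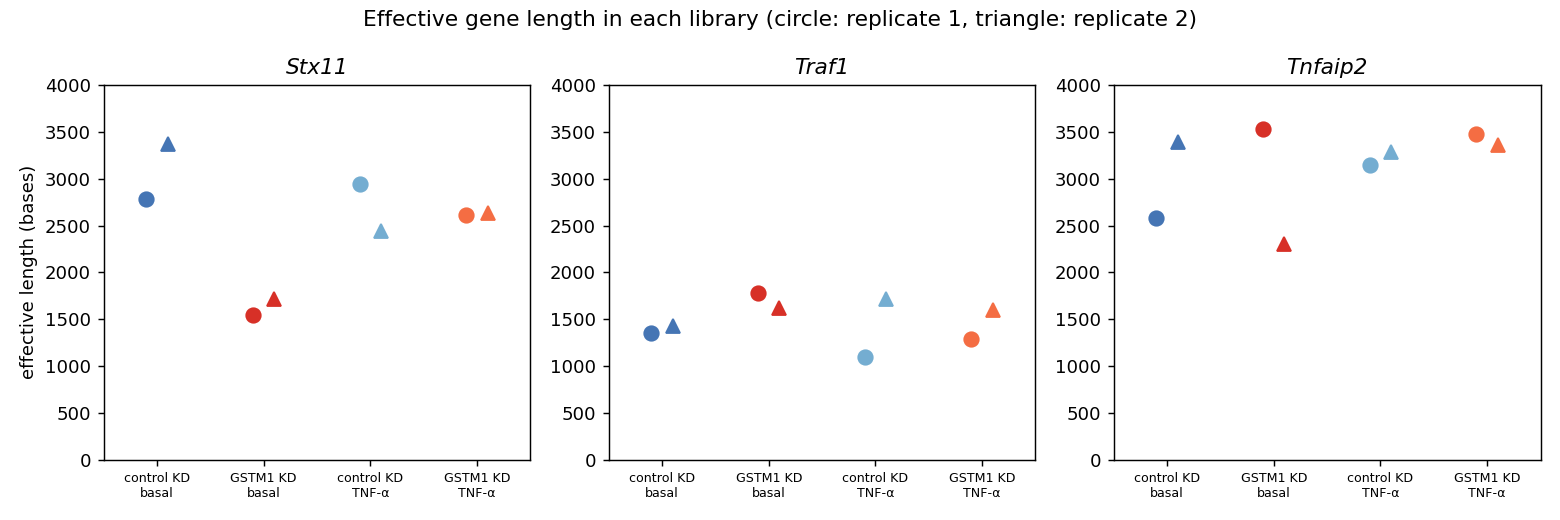
Effective length of Stx11, Traf1 and Tnfaip2 in each library. The y axis is the effective length in bases from 0, the x axis gives the 4 groups, and circles and triangles are replicates 1 and 2. The basal GSTM1 KD libraries of Stx11 are the shortest of its 8, from 1548 bases, and those of basal control KD reach 3368 bases.

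Levels can be set against each other between genes only per length, so the order is given in TPM as group mean ± SD (n = 2). In basal control KD the order began with Tnip1 at 29.8 ± 4.03 TPM and Birc2 at 24.7 ± 1.27 TPM, and ended with Birc3 at 8.35 ± 0.509 TPM and Stx11 at 4.31 ± 1.29 TPM. Between them, neighbors overlapped from Birc2 through Cyld and Tnfaip3 to Traf3, and again from Tnip2 through Tnfaip2 and Traf1 to Birc3. In basal GSTM1 KD Traf3 came first at 38.5 ± 1.99 TPM, followed by Cyld at 30.2 ± 1.03 TPM. Tnfaip3 stood at number 7 with 5.46 ± 0.0566 TPM, and Stx11, Birc3 and Tnfaip2 ended the order with overlapping ranges between 2.32 and 3.21 TPM.

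After TNF-α stimulation Tnfaip2 led in control KD at 392 ± 150.3 TPM, above Tnip1 at 129 ± 3.07 TPM and Tnfaip3 at 108.5 ± 27.7 TPM, of which the latter pair overlapped. Birc2 (66.2 ± 11.5 TPM) and Birc3 (61.2 ± 6.57 TPM) also overlapped each other. In stimulated GSTM1 KD Tnip1 was first at 91.9 ± 0.891 TPM and Tnfaip2 second at 79.3 ± 1.06 TPM, without overlap. Tnfaip3 at 60.0 ± 3.39 TPM, Traf3 at 57.4 ± 2.32 TPM and Birc2 at 54.3 ± 3.35 TPM followed with overlapping neighbors. Traf3 thus stood at number 7 of the 10 in stimulated control KD, at 26.4 ± 1.75 TPM, and at number 4 in stimulated GSTM1 KD. Tnip2 and Traf1 closed the order in both stimulated groups, between 6.47 and 13.5 TPM.

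The genes most like Tnfaip3 over the 8 libraries were sought among the 15332 genes of the 8-library fit, by the root mean square difference of log2 CPM profiles centered on their own means. Birc3 was closest (0.259), followed by Stx11 (0.313), Cxcl16 (0.321), Bmp2 (0.436) and Icam1 (0.459). Cxcl16 encodes a chemokine, Bmp2 a growth factor of the bone morphogenetic protein family and Icam1 a leukocyte adhesion molecule. For Birc3 the order was Stx11 (0.203), Cxcl16 (0.205), Icam1 (0.247), Tnfaip3 (0.259) and Prnd (0.365). Tnip1, at 0.851, was number 68 in likeness to Tnfaip3. Traf3 and Cyld, both at 1.80, were number 10091 and number 10053. The points behind these values are the same 8 libraries, and they are given without a test.

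The genes around these 10 in the pathway were counted in the same comparisons. Their counts stand beside shares over all genes tested of 2.10% and 2.35% called higher after TNF-α (control KD and GSTM1 KD), and of 5.62% and 8.92% called lower in GSTM1 KD (basal and stimulated). A count of 1 of 10 lower after TNF-α is close to its share and is not a result about a list. Of 10 receptor complex and TRAF genes, Traf2, the adaptor that carries cIAP1 and cIAP2, rose after TNF-α in control KD (log2 fold change 0.91, SE 0.155, edgeR adjusted p = 0.0291) and with GSTM1 KD (1.21, SE 0.157, adjusted p = 0.00923), and it was the only gene of its list called. In GSTM1 KD against control KD, 2 of the 10 were lower without stimulation and 1 after TNF-α. Ripk1, the receptor kinase on which these ubiquitin chains are built, was lower in both (−0.88, SE 0.106, and −0.77, SE 0.0955). Of 10 genes of the linear ubiquitin ligase, TAK1 and IKK, 0 were called in either TNF-α response, while 6 were lower in basal GSTM1 KD and 5 after TNF-α. Tab3 and Tab2, which encode the ubiquitin-binding subunits of TAK1, fell below control KD by log2 values of −1.19 and −0.88 at the basal level and −1.09 and −1.04 after TNF-α. The median of this list was −0.63 and −0.49 in the 2 states.

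Of 11 NF-κB and IκB genes, 8 rose after TNF-α in each knockdown. Nfkbie, the gene of IκBε, rose by a log2 value of 3.94 (SE 0.132) in control KD and by 0.06 more (SE 0.175) in GSTM1 KD. Nfkbia, the gene of IκBα, rose by 3.31 (SE 0.162) and 3.81 (SE 0.167). Neither differed between the knockdowns by the test, with log2 fold changes of −0.53 and −0.06 for Nfkbia and −0.10 and −0.06 for Nfkbie. Between the knockdowns 1 of 10 tested genes of this list was lower without stimulation and 2 of 11 after TNF-α. Rela, the gene of the NF-κB subunit p65, was among them in each state (−0.61, SE 0.100, and −0.76, SE 0.103). Of 10 further deubiquitinase and A20 partner genes tested, 0 were called in either TNF-α response. Otulin, which encodes the enzyme that cleaves linear ubiquitin chains, was lower with GSTM1 KD (−0.66, SE 0.140, and −0.81, SE 0.153). At the basal level Spata2, which links CYLD to the linear ubiquitin ligase, was higher by 0.54 (SE 0.116, adjusted p = 0.0439 by edgeR), and its value of 0.53 after TNF-α did not pass (adjusted p = 0.0572). Among 3 other IAP genes tested and the partners of Stx11 in vesicle fusion (6 or 7 tested), 0 were called in any of the 5 comparisons. Among cell death effector genes (5 or 6 tested), Mlkl, the pore-forming protein of necroptosis, was lower in GSTM1 KD at the basal level (−1.74, SE 0.291). Zbp1, a sensor of nucleic acids, rose by log2 values of 2.98 (control KD) and 4.78 (GSTM1 KD), from very low basal levels. These were 0.396 and 0.117 CPM in control KD and 0.429 and 0.351 CPM in GSTM1 KD, and the knockdowns were not compared there. After TNF-α Zbp1 was higher in GSTM1 KD (2.29, SE 0.419), at 14.8 and 7.01 against 2.37 and 1.99 CPM. Ripk3, a kinase of necroptosis, was lower in GSTM1 KD after TNF-α (−1.43, SE 0.341), at 0.739 and 0.805 against 1.895 and 2.23 CPM. The basal difference of Ripk3 was −1.37 (SE 0.357) and did not pass (adjusted p = 0.0674 by edgeR).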

How the data were processed

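Directional RNA-seq libraries were mapped by the authors to GRCm38 with STAR (2.5.4b, per the submitters' processing notes) and quantified with RSEM (1.3.0). The authors deposited, for 54146 genes per library, the expected count (RSEM's estimate, not normalized), the TPM value and the effective length in bases. The annotation release is not given in the sources used here. Coordinates come from GENCODE M21, whose gene identifiers match those deposited. Expected counts were rounded to whole numbers. Total counts were 17349676 to 34434633 per library. The deposited TPM values were used for levels between genes and marker sums, in no test.

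edgeR (4.0.16, R 4.3.3) was used with TMM factors (0.958 to 1.03 over the 8 libraries), its default expression filter by group, and quasi-likelihood F-tests. P-values were adjusted by Benjamini-Hochberg and the threshold was 0.05. TNF-α responses and their difference used all 8 libraries (15332 genes tested). Knockdowns were compared on the 4 libraries of each state (14899 and 14593 genes). Standard errors and 95% intervals come from the fits. The study names DESeq2 for its own tests, and here DESeq2 (1.42.0) was an alternative. The others were edgeR with library size alone or with the size factors of DESeq2, a filter of 10 counts per library or none, the replicate number as a block, effective lengths as offsets, other sets of libraries in the fit, and leaving out each replicate. Centered profiles used log2 CPM computed from the deposited counts with a prior count of 2.

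The 10 members and the 8 further gene lists and 7 marker lists were chosen with earlier results of these data known. Named are the 10 members, the 5 genes most like Tnfaip3 and Birc3, and of each list called genes with the smallest p and up to 3 uncalled. Procedures were tested on simulated data. Promoters are from RefSeq (GRCm38.p6). Figures were drawn with matplotlib 3.10.9 in Python 3.11.15.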

Additional observations from a re-analysis of the deposited data

How the results depend on the processing

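Where one of the 10 genes was called, its log2 fold change kept its sign under every alternative run, and no alternative was run for single genes outside the 10. Among values of the 10 not called, signs changed for Traf1, Tnip2 and Cyld in the response of control KD, for Traf1 and Tnip1 between the knockdowns at the basal level, and for Tnip2, Birc2, Traf1, Traf3 and Tnfaip2 in the difference in response. Under the alternatives that kept all replicates of a comparison, the number of the 10 genes called after TNF-α was 4 to 7 in control KD and 6 or 7 in GSTM1 KD, and between the knockdowns 4 to 6 at the basal level and 6 to 8 after TNF-α. Leaving out each replicate in turn gave 0 to 7 at the basal level and 0 to 8 after TNF-α between the knockdowns, with 0 where a GSTM1 KD library was left out. For the difference in response 2 genes passed without the filter on low counts, and the cause was not tested. With the replicate number as a block, 7, 7, 6, 7 and 0 of the 10 passed (response in control KD, in GSTM1 KD, knockdowns at the basal level, after TNF-α, and difference in response), with Traf3 in both responses (adjusted p = 0.00429 and 0.0101 by edgeR) and Cyld at the basal level (0.35, adjusted p = 0.0229) in addition. Over all genes the block moved the counts of calls from 403, 406, 1524, 2360 and 0 to 988, 808, 4712, 4302 and 0. The labels do not say that the numbers pair libraries. Differences between replicates 1 and 2 correlated across genes at 0.16 to 0.58 between groups. The highest values were between the basal and stimulated groups of control KD (0.58) and of GSTM1 KD (0.33). Whether libraries with the same number shared a culture or batch was not tested, and the main fits did not pair them. Without the filter 1255, 1050, 3957, 4540 and 134 genes passed, with DESeq2 738, 629, 2494, 2835 and 27, and with all 8 libraries 2762 and 3116 between the knockdowns. With only the 4 libraries of a knockdown, 72 genes passed in control KD and 691 in GSTM1 KD. With library size alone, calls between the knockdowns went from 686 higher and 838 lower to 870 and 784 at the basal level, and from 1059 and 1301 to 1350 and 1163 after TNF-α, while those of the 10 genes stayed at 1 and 4, and 2 and 5. Depth limits genes with few counts, such as Birc3, Stx11 and Tnfaip2 with at most 121 counts in each basal GSTM1 KD library, and Traf1 with 97 and 120 counts in control KD after TNF-α.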
